A study of Mus musculus with 9 samples.

Results

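Oxidative phosphorylation genes were read here in sorted mouse microglia, the resident macrophages of the brain. The gene set holds every gene with a probe set of 1 symbol that starts with Nduf, Uqcr or Atp5, that names a Cox4 to Cox8 subunit or Sdha to Sdhd, or that is a protein gene of the mitochondrial genome. It came to 99 of the 22180 genes tested, of which 87 are nuclear genes, 10 are mitochondrially encoded and 2 are pseudogenes. Members were chosen by name and not by their values, and all 99 were tested, with no filter on low values. Where a gene had several probe sets, the brightest stood for it.

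Oxidative phosphorylation is the work of 5 enzyme complexes in the inner mitochondrial membrane. Complexes I (NADH dehydrogenase) and II (succinate dehydrogenase) pass electrons to ubiquinone, complex III passes them on to cytochrome c, and complex IV (cytochrome c oxidase) to oxygen. The proton gradient that complexes I, III and IV build drives complex V, the ATP synthase. Most subunits are encoded in the nucleus, and a small core is encoded in the circular mitochondrial genome, which is copied into long transcripts that are cut into single RNAs. Microglia use this pathway beside glycolysis, and the balance between both is known to shift when they are activated.

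The 9 arrays cover 3 genotypes with 3 arrays each, all from female C57Bl/6 mice of 24 to 28 weeks that had been given 8 mg tamoxifen at 6 weeks. FAD DKO mice carried the 5X familial Alzheimer's disease background, floxed Hdac1 and Hdac2 (the genes of a pair of class I histone deacetylases) and Cx3cr1CreERT2, a Cre recombinase that tamoxifen activates and that is made where the Cx3cr1 gene is active. FAD mice carried the same background and floxed alleles without the Cre. Wild type mice are labelled as such with no allele named. FAD DKO therefore differs from FAD by the Cre allele as well as by the deletion, and FAD differs from wild type by the floxed alleles as well as by the disease background. The effects in each of these pairs cannot be told apart.

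Total RNA of the sorted cells was amplified and labelled with biotin. The deposited values are log2 signals, with array medians from 5.346 to 5.398. Hdac1 stood at 7.63, 7.41 and 7.64 in FAD DKO, at 8.03, 8.14 and 8.19 in FAD, and at 8.07, 8.65 and 8.60 in wild type. Hdac2 stood at 7.89, 7.61 and 7.90 in FAD DKO, at 8.56, 8.52 and 8.36 in FAD, and at 8.28, 8.39 and 8.22 in wild type. Every FAD DKO array lay below every other array for both genes, though their probes may lie outside the deleted parts. The mean of 11 measured microglia markers lay between 10.90 and 10.98 in FAD DKO, between 10.90 and 10.99 in FAD, and between 11.02 and 11.03 in wild type. Means of the neuron, astrocyte, oligodendrocyte, endothelial, border macrophage and lymphocyte marker lists stayed between 4.45 and 5.58 on all 9 arrays, near the median of all probe sets. The 8 monocyte and neutrophil markers varied more, from 6.27 (FAD DKO array 1) to 8.30 (FAD DKO array 2) in FAD DKO, between 7.58 and 7.70 in FAD, and between 6.87 and 7.55 in wild type. Nothing in the labels ties the arrays of a genotype to different mice, so the p-values may measure technical spread only, and the number of arrays limits the precision.

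In the fit of all arrays, the only member called (adjusted p under 0.05, limma) was mitochondrially encoded. ND3, a subunit of the membrane arm of complex I, stood at 12.57, 12.43 and 12.70 in FAD DKO, at 12.61, 12.67 and 12.51 in FAD, and at 11.66, 11.63 and 11.54 in wild type (log2 signal). Every FAD DKO and FAD array lay well above every wild type array, and the FAD DKO and FAD arrays overlapped. The ND3 signal was higher by 0.99 on the log2 scale in FAD against wild type (SE 0.0861, 95% interval 0.79 to 1.18, 1.98-fold, adjusted p = 0.00429, limma). It was higher by 0.96 in FAD DKO against wild type (95% interval 0.77 to 1.15, 1.94-fold, adjusted p = 0.0081, limma). ND3 in FAD DKO differed from FAD by -0.03 (95% interval -0.22 to 0.17, adjusted p = 0.941, limma). In a bulk sample such as this, more cells that carry a transcript and more of it per cell cannot be told apart. A probe set's signal also cannot separate the amount of a transcript from how well it binds the probes.

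ND3 was the 1 member of 99 past an adjusted p under 0.05 in FAD against wild type, where 0.0406% of all genes were called and 0.0316% were called higher. It was also the 1 member of 99 in FAD DKO against wild type, where 0.14% of all genes were called and 0.0947% were called higher. No member was called by limma in FAD DKO against FAD, where 0.0225% of all genes were, and at an unadjusted p under 0.05 there were 1 higher and 3 lower members, beside 3.69% and 4.41% of all genes. Both ND3 comparisons use the same wild type arrays and so are not independent of each other. Leaving out any of the 9 arrays kept ND3 called in FAD against wild type, with an adjusted p between 0.00636 and 0.0352. In FAD DKO against wild type the adjusted p was 0.0603 without wild type array 2, 0.0511 without FAD DKO array 1 and 0.056 without FAD DKO array 3, while the change stayed between 0.89 and 1.03.

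**Figure D1:**
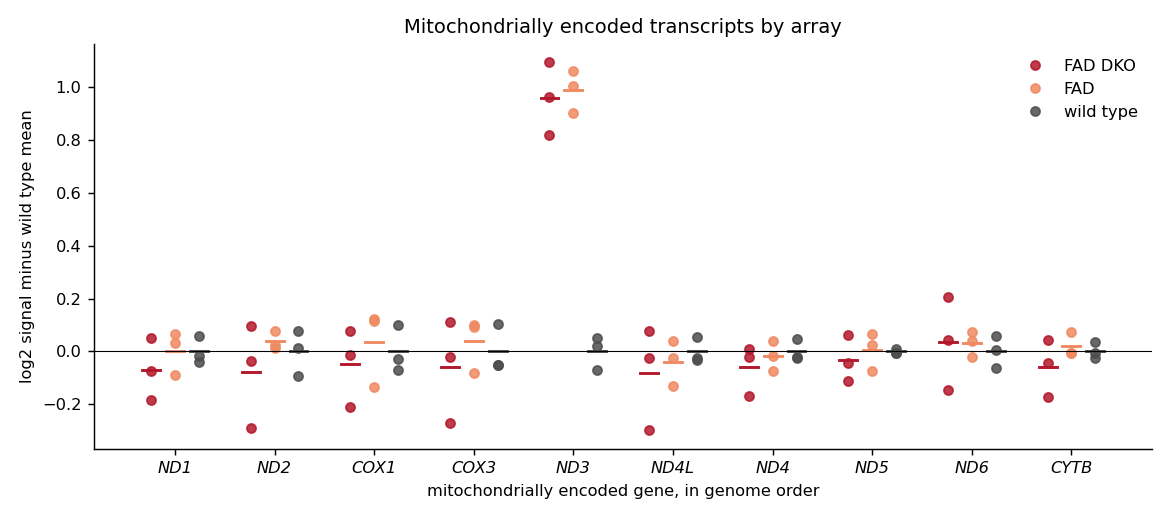
Log2 signal of the 10 mitochondrially encoded members on each array (points) minus the wild type mean of the gene, with a bar at each group's mean, FAD DKO left, FAD in the middle and wild type right. The means of ND3 lie 0.96 (FAD DKO) and 0.99 (FAD) above wild type, while the groups overlap for each of the other 9 genes.

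The other 9 mitochondrial transcripts had values that overlapped between the groups. They are ND1, ND2, ND4, ND4L, ND5 and ND6 of complex I, cytochrome b (CYTB) of complex III, and COX1 and COX3 of complex IV. In FAD against wild type their log2 changes lay between -0.04 and 0.04 (adjusted p from 0.942 to 0.996, limma). The FAD DKO changes against wild type lay between -0.08 and 0.03 (adjusted p from 0.877 to 0.952, limma). That overlap held for each of the 9 genes in every comparison.

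The direct neighbours of ND3 among the protein genes, COX3 before it and ND4L after it in RefSeq's gene order, show the contrast within a stretch of the same genome. COX3 stood at 11.89, 11.64 and 12.02 in FAD DKO, at 12.01, 12.004 and 11.83 in FAD, and at 11.86, 11.86 and 12.02 in wild type. Its difference in FAD against wild type was 0.04 (95% interval -0.20 to 0.28). ND4L, another membrane arm subunit of complex I, stood at 11.36, 11.08 and 11.46 in FAD DKO, at 11.36, 11.42 and 11.25 in FAD, and at 11.36, 11.35 and 11.44 in wild type. Its difference in FAD against wild type was -0.04 (95% interval -0.27 to 0.19). Both intervals end far below the change of ND3. The transfer RNA genes that flank ND3, like the other 22 mitochondrial ribosomal and transfer RNA genes, have no probe set of their own symbol here.

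Within each array, ND3 was also set against the mean of the other 9 mitochondrial genes, where only the change between arrays can be read because the probe sets differ. The difference was 0.76, 0.79 and 0.78 in FAD DKO, 0.74, 0.75 and 0.73 in FAD, and -0.14, -0.20 and -0.37 in wild type. The 6 FAD DKO and FAD arrays span a narrow band, and the wild type arrays lie apart from it and spread more. ND3 rests on 1 probe set, and the sequences of its probes were not used here. Whether the transcript binds these probes equally well in the 3 genotypes was therefore not tested.

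Between FAD DKO and FAD the other 9 genes differed by -0.12 to 0.00, with a median of -0.07 and 8 of 9 below 0 (adjusted p from 0.769 to 0.993, limma). Without FAD DKO array 2 the median was 0.00 and 4 of 9 were below 0, so that direction rests on this array. The mean of these genes, after centring each gene over the arrays, was -0.01, -0.19 and 0.09 in FAD DKO, 0.05, 0.08 and -0.05 in FAD, and -0.03, -0.00 and 0.07 in wild type. FAD DKO array 2 was the lowest of all 9 arrays and FAD DKO array 3 the highest, so the FAD DKO arrays spanned the values of both other groups. Array 2 of FAD DKO was also the one with the highest monocyte and neutrophil markers, and the part of those cells in these values was not tested. ND6, which is encoded on the other strand of the mitochondrial genome from the remaining members, stood at 11.85, 11.66 and 12.02 in FAD DKO, at 11.85, 11.88 and 11.79 in FAD, and at 11.74, 11.81 and 11.87 in wild type. It overlapped between the groups like the rest.

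Nuclear genes of the pathway leaned towards higher values in both FAD DKO and FAD against wild type, with no single gene past the test. In FAD against wild type, 63 of 87 nuclear members were above 0 (72.4%), with a median log2 change of 0.08, against 47.8% above 0 and a median of -0.01 over all genes. The FAD DKO count against wild type was 64 of 87 above 0 (73.6%), also with a median of 0.08, against 51.3% and 0.00 over all genes. The count for FAD DKO against FAD was 45 of 87 above 0 (51.7%), with a median of 0.01, against 53.2% and 0.01 over all genes. Of the 87, 84 lie among the genes at or above the median of all probe sets. Of those brighter genes 53.5% were above 0 in FAD against wild type (median 0.01). It was 49.3% in FAD DKO against wild type (median -0.00) and 45.9% in FAD DKO against FAD (median -0.01). The first and second of these comparisons share the wild type arrays.

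The lowest adjusted p among the 87 was 0.207 in FAD against wild type, 0.128 in FAD DKO against wild type and 0.546 in FAD DKO against FAD (limma). At an unadjusted p under 0.05, 9 were higher and 2 lower in FAD against wild type, where 4.41% of all genes were higher and 4.02% lower. For FAD DKO against wild type, 12 were higher and 2 lower, beside 3.95% and 4.19% of all genes. Between FAD DKO and FAD, 1 was higher and 3 were lower, beside 3.69% and 4.41% of all genes. Of the brighter genes, 6.33% were higher and 4.01% lower in FAD against wild type. These shares were 4.64% and 5.67% in FAD DKO against wild type, and 2.92% and 6.69% in FAD DKO against FAD. FAD and wild type arrays did not overlap for 19 nuclear members with higher FAD values, or 21.8% of them, beside 6.37% of all genes and 9.85% of the genes at or above the median of all probe sets, where 84 of the 87 lie. FAD DKO and wild type arrays did not overlap for 21 members with higher FAD DKO values, or 24.1%, beside 5.77% of all genes and 7.6% of the brighter ones. On the lower side there were 3 such members in each of these comparisons (3.45%), beside 5.46% of all genes in FAD and 6.15% in FAD DKO. Of the brighter genes 5.97% were on that side in FAD and 9.3% in FAD DKO. Between FAD DKO and FAD the groups did not overlap for 7 members that were higher in FAD DKO (8.05%, beside 5.38% of all genes). They did not overlap for 5 that were lower (5.75%, beside 6.5%). Of the brighter genes 5.52% were higher and 10.5% lower without overlap there.

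Most changes were small, as they were over all genes. In FAD against wild type 77 of 87 nuclear members lay within 0.25 of 0, beside 19777 of all 22180 genes. It was 83 members and 19779 genes in FAD DKO against FAD, and 74 members and 19825 genes in FAD DKO against wild type. The mean of the 87 centred values was 0.04, -0.04 and 0.08 in FAD DKO, -0.01, 0.06 and 0.01 in FAD, and -0.01, -0.05 and -0.08 in wild type. Array 2 of FAD DKO lay within the wild type range, so the FAD DKO and wild type groups overlapped. Wild type arrays 2 and 3 were the lowest, while FAD array 1 and wild type array 1 were almost level, and every FAD array was above every wild type array.

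**Figure D2:**
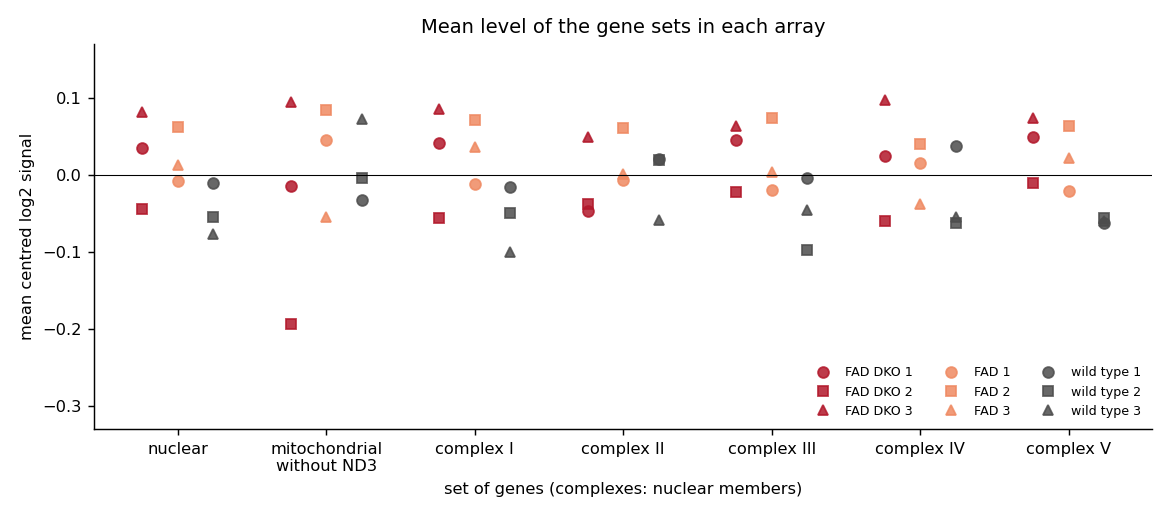
Mean centred log2 value of each gene set on each array (points), FAD DKO left, FAD in the middle and wild type right in each set. Over all nuclear members wild type arrays 2 and 3 are lowest, at -0.05 and -0.08, but in complexes II and IV wild type array 1 lies above several FAD DKO and FAD arrays, while for the mitochondrial genes other than ND3 the 3 groups overlap and FAD DKO array 2 is lowest at -0.19.

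Complex I, the largest complex, takes electrons from NADH. Its 6 measured nuclear core subunits, which carry the flavin and iron-sulphur centres, had median log2 changes of 0.02 in FAD against wild type, -0.02 in FAD DKO against FAD and -0.00 in FAD DKO against wild type. Ndufv2, a core subunit with an iron-sulphur centre, stood at 7.39, 7.44 and 7.63 in FAD DKO, at 7.69, 7.70 and 7.55 in FAD, and at 7.53, 7.45 and 7.54 in wild type. It lay above wild type on every FAD array, though by only 0.14 on average (adjusted p = 0.678, limma).

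The 26 accessory subunits, which surround the core and are needed for its assembly or stability, make up the largest group of members. In FAD against wild type 17 of 26 were above 0 with a median of 0.07, and the groups did not overlap for 9 that were higher (6.37% of all genes did so). Without wild type array 3 that median was 0.03. Against wild type, FAD DKO had 21 of 26 above 0 with a median of 0.11, and 7 higher ones did not overlap (5.77% of all genes). For FAD DKO against FAD the count was 13 of 26 with a median of -0.00. Ndufa1, a small subunit of the membrane arm, stood at 8.37, 8.18 and 8.67 in FAD DKO, at 8.18, 8.57 and 8.08 in FAD, and at 8.12, 7.83 and 7.59 in wild type. All FAD DKO arrays were above all wild type arrays (difference 0.56, adjusted p = 0.421, limma), while FAD array 3 was below wild type array 1. Ndufb3, another membrane arm subunit, stood at 6.97, 6.69 and 7.20 in FAD DKO, at 6.997, 7.20 and 7.06 in FAD, and at 6.65, 6.71 and 6.95 in wild type. The FAD arrays were all above wild type (difference 0.31, adjusted p = 0.588, limma), and the FAD DKO arrays were not.

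Ndufc2 had 9.57, 9.33 and 9.40 in FAD DKO, 9.49, 9.48 and 9.37 in FAD, and 9.20, 9.31 and 9.26 in wild type. Ndufb6 had 6.96, 6.81 and 6.81 in FAD DKO, 6.93, 6.91 and 6.82 in FAD, and 6.78, 6.66 and 6.66 in wild type. Both of these membrane arm subunits differed by 0.19 in FAD against wild type with no overlap. Between FAD DKO and FAD, Ndufc2 differed by -0.01 and Ndufb6 by -0.03. Ndufb7 lay highest in FAD DKO, with 7.78, 7.88 and 7.95, against 7.77, 7.78 and 7.70 in FAD and 7.76, 7.68 and 7.47 in wild type. Its difference in FAD DKO against wild type was 0.24 (adjusted p = 0.51, limma).

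The 8 complex I assembly factors, proteins that build the complex and are not part of the finished enzyme, differed in another way. All 8 were above 0 in FAD against wild type, with a median of 0.11, whereas 3 of 8 were above 0 in FAD DKO against FAD, with a median of -0.11. The FAD arrays enter both comparisons, with opposite signs. Set against wild type, FAD DKO had a median of 0.04 with 5 of 8 above 0. Ndufaf2, a chaperone of a late step of assembly, stood at 6.45, 6.64 and 6.47 in FAD DKO, at 6.72, 6.47 and 6.67 in FAD, and at 6.22, 6.23 and 6.15 in wild type. Both FAD DKO and FAD lay wholly above wild type. Its change of 0.42 in FAD against wild type (SE 0.0872, adjusted p = 0.207, limma) had the lowest p of the nuclear members in that comparison and did not pass.

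Ndufaf6 is an assembly factor that human cells need for the ND1 part of complex I. It stood at 6.05, 5.62 and 6.35 in FAD DKO, at 6.36, 6.38 and 6.47 in FAD, and at 6.26, 5.96 and 6.11 in wild type. Every FAD array was above every FAD DKO and every wild type array, and the FAD DKO arrays spanned the wild type ones. The difference in FAD DKO against FAD was -0.40 (SE 0.164, adjusted p = 0.59, limma), and -0.20 without FAD DKO array 2. Ndufaf1, Ndufaf4 and Ndufaf8 were also lower on every FAD DKO than on every FAD array, by -0.12, -0.14 and -0.15 on average, so that the groups did not overlap for 4 of the 8 factors, beside 6.5% of all genes and 10.5% of those at or above the median of all probe sets.

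**Figure D3:**
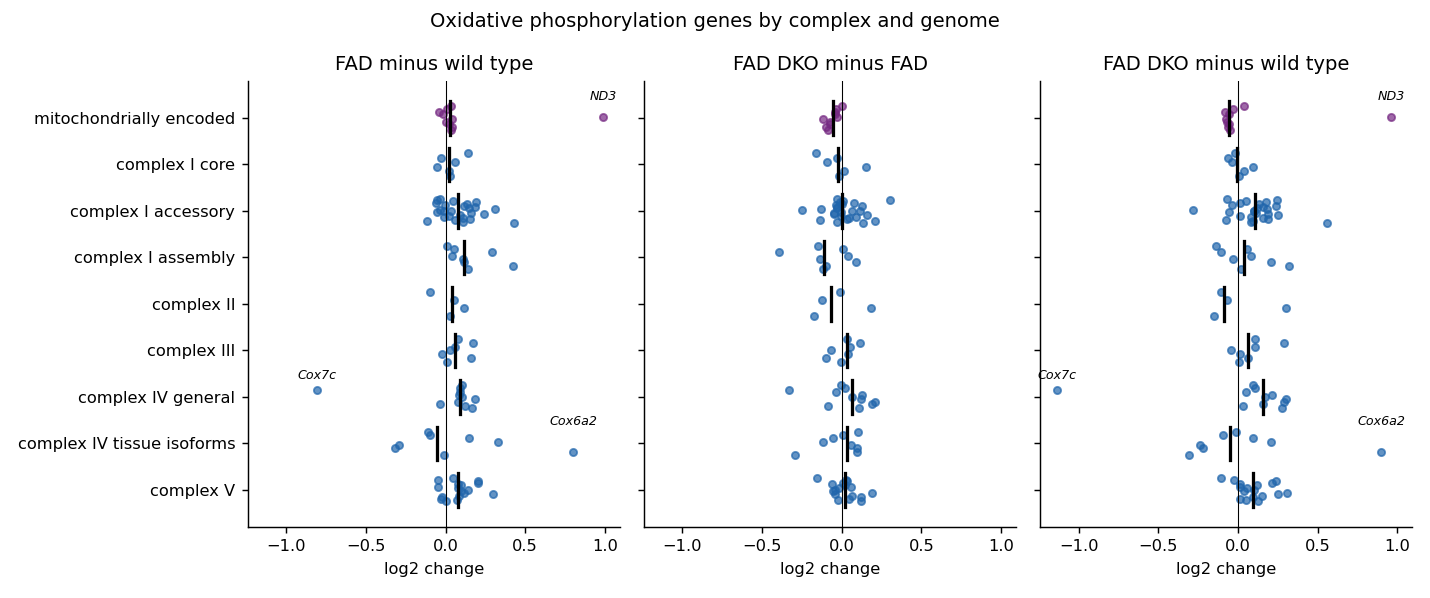
Log2 change of every nuclear and mitochondrially encoded member in the 3 comparisons, arranged by complex and genome. Points are members, the bars across them are medians, and the pseudogenes are not drawn. In the comparisons with wild type ND3 lies near 1, apart from the other mitochondrial members. Most other members lie within 0.25 of 0, though in FAD DKO against wild type Cox6a2 lies at 0.90 and Cox7c at -1.14.

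Complex II, which oxidises succinate and belongs to the citric acid cycle as well, had 4 members, all nuclear. Its median change was 0.04 in FAD against wild type, -0.07 in FAD DKO against FAD and -0.09 in FAD DKO against wild type, but its subunits went different ways. Sdhb, the iron-sulphur subunit, stood at 7.45, 7.54 and 7.45 in FAD DKO, at 7.31, 7.42 and 7.17 in FAD, and at 7.23, 7.07 and 7.24 in wild type. Every FAD DKO array lay above all the others, with a difference of 0.30 from wild type (SE 0.0841, adjusted p = 0.335, limma) and of 0.18 from FAD (adjusted p = 0.627, limma). Sdha, the flavin subunit that binds succinate, stood at 7.84, 7.91 and 8.08 in FAD DKO, at 8.16, 8.11 and 8.08 in FAD, and at 8.10, 8.06 and 8.11 in wild type. It had the other sign, with -0.17 in FAD DKO against FAD (adjusted p = 0.607, limma) and -0.15 against wild type (adjusted p = 0.663, limma). The membrane anchors Sdhc and Sdhd differed by -0.07 and -0.11 in FAD DKO against wild type.

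Complex III, which hands electrons to cytochrome c, had 7 nuclear members with medians of 0.06 in FAD against wild type, 0.03 in FAD DKO against FAD and 0.07 in FAD DKO against wild type. Uqcrh, the hinge protein next to cytochrome c1, stood at 7.95 on all 3 FAD DKO arrays, at 7.76, 7.93 and 7.80 in FAD, and at 7.81, 7.59 and 7.58 in wild type. The FAD DKO arrays lay above both other groups, by 0.29 over wild type (SE 0.0819, adjusted p = 0.34, limma) and 0.12 over FAD. The large core proteins Uqcrc1 and Uqcrc2 differed by 0.01 and -0.05 in FAD DKO against wild type and by -0.03 and 0.02 in FAD against wild type.

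Complex IV reduces oxygen, and several of its nuclear subunits exist as isoforms made from separate genes, some typical of heart and skeletal muscle, testis or lung. The 11 general subunits had medians of 0.09 in FAD against wild type, 0.07 in FAD DKO against FAD and 0.16 in FAD DKO against wild type, where 10 of 11 were above 0. With single arrays left out, the FAD DKO median against FAD ranged from 0.02 (without FAD array 3) to 0.15 (without FAD array 2), and the FAD median against wild type from 0.05 (without FAD array 2) to 0.15 (without FAD array 3). The 8 genes of isoforms known from particular tissues had medians of -0.06, 0.03 and -0.05 in the same order, with 3 of 8 above 0 in FAD DKO against wild type. Ndufa4 and Cox7a2l, whose names place them elsewhere or as a relative of subunit 7a, are counted with the general and Ndufa4l2 with the isoform genes. Both the highest and the lowest nuclear changes against wild type lay in this complex.

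Cox6a2, the isoform of subunit 6a known from heart and skeletal muscle, stood at 8.04, 7.87 and 8.62 in FAD DKO, at 8.30, 8.15 and 7.78 in FAD, and at 7.32, 7.38 and 7.13 in wild type. All FAD DKO and FAD arrays lay above all wild type arrays. The difference was 0.80 in FAD against wild type (SE 0.198, 95% interval 0.35 to 1.25, adjusted p = 0.345, limma) and 0.90 in FAD DKO against wild type (95% interval 0.45 to 1.35, adjusted p = 0.178, limma). FAD DKO and FAD overlapped, with a difference of 0.10 (adjusted p = 0.91, limma). Its general counterpart Cox6a1 stood at 10.13, 10.09 and 10.21 in FAD DKO, at 9.76, 10.04 and 10.003 in FAD, and at 9.91, 9.88 and 9.76 in wild type. Here the FAD DKO arrays were above both other groups, by 0.21 over FAD (SE 0.089, adjusted p = 0.602, limma) and 0.29 over wild type (adjusted p = 0.399, limma), and FAD overlapped with wild type.

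Cox7c, a small general subunit, had differences of the opposite sign. It stood at 4.81, 4.78 and 5.03 in FAD DKO, at 5.77, 4.94 and 4.90 in FAD, and at 6.31, 5.85 and 5.85 in wild type. All FAD DKO and FAD arrays lay below all wild type arrays, though FAD array 1 was close to wild type and far above its own group. The difference was -1.14 in FAD DKO against wild type (95% interval -1.65 to -0.62, adjusted p = 0.128, limma) and -0.80 in FAD against wild type (SE 0.229, 95% interval -1.32 to -0.29, adjusted p = 0.436, limma). Without FAD array 1 it was called in FAD DKO against wild type, with an adjusted p of 0.0448 (limma). Its mean over the arrays equals about the median of all probe sets, 5.35, so part of its values lie in the lower range of the arrays.

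The isoform pair Cox4i1 and Cox4i2, where Cox4i2 is the form known from lung and low oxygen, also differed in sign. Cox4i2 lay near the median of all probe sets, 5.35, which limits what its change can show. Cox4i1 stood at 9.76, 9.78 and 9.91 in FAD DKO, at 9.65, 9.80 and 9.66 in FAD, and at 9.70, 9.43 and 9.50 in wild type (FAD DKO against wild type 0.27, adjusted p = 0.43, limma). Cox4i2 stood at 5.81, 5.47 and 5.41 in FAD DKO, at 5.80, 5.97 and 5.81 in FAD, and at 5.89, 5.76 and 5.96 in wild type (FAD DKO against wild type -0.31, adjusted p = 0.51, limma). Its difference of -0.29 in FAD DKO against FAD had the lowest p of the nuclear members there (adjusted p = 0.546, limma). FAD DKO lay above wild type for Cox4i1, and for Cox4i2 array 1 of FAD DKO was level with FAD and wild type. Cox7a1, the heart and muscle isoform of subunit 7a, stood at 5.88, 5.75 and 5.88 in FAD DKO, at 5.58, 5.88 and 5.88 in FAD, and at 6.22, 5.91 and 6.08 in wild type. Wild type was highest on every array (FAD against wild type -0.29, adjusted p = 0.525, limma), though Cox7a1 too lay in the lower range of the arrays. Its widely expressed counterpart Cox7a2 stood at 8.99, 9.02 and 9.01 in FAD DKO, at 8.86, 9.12 and 8.84 in FAD, and at 8.89, 8.82 and 8.80 in wild type, with FAD DKO above wild type by 0.17 (adjusted p = 0.652, limma).

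**Figure D4:**
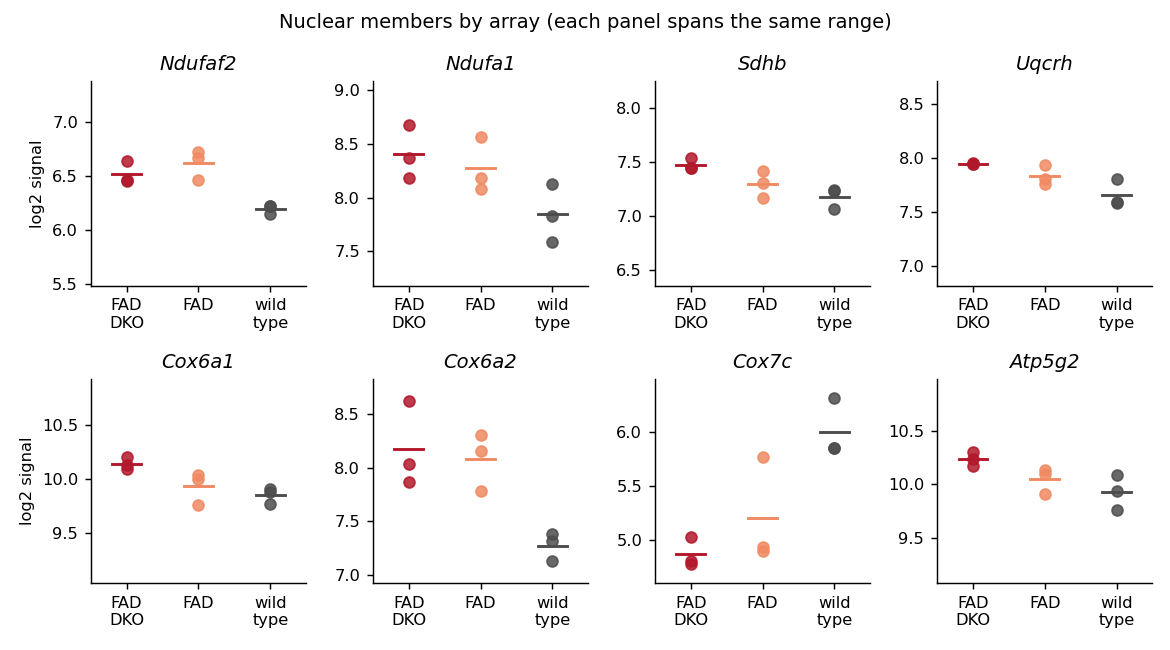
Log2 signal of nuclear members on each array (points), with a bar at each group's mean, FAD DKO left, FAD in the middle and wild type right in each panel. Cox6a2 is higher and Cox7c lower on all FAD DKO and FAD arrays than on all wild type arrays, and none of the genes drawn passed the adjusted threshold.

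Complex V, the ATP synthase, had 17 nuclear members. In FAD against wild type 13 of 17 were above 0 with a median of 0.08, in FAD DKO against wild type 15 of 17 with a median of 0.10, and in FAD DKO against FAD 10 of 17 with a median of 0.02. Atp5g2, a gene of subunit c, which forms the rotating ring in the membrane, stood at 10.18, 10.24 and 10.30 in FAD DKO, at 9.92, 10.14 and 10.09 in FAD, and at 10.09, 9.94 and 9.76 in wild type. Every FAD DKO array lay above all the others, by 0.31 over wild type (SE 0.0979, adjusted p = 0.413, limma). A second probe set of the gene gave 0.32. The other subunit c genes, whose mature proteins are the same, did not show that order, since Atp5g3 stood at 7.96, 8.06 and 8.04 in FAD DKO, at 8.12, 8.07 and 8.04 in FAD, and at 7.96, 7.96 and 8.02 in wild type. Atp5g1 varied so much within each group that its difference of 0.25 in FAD DKO against wild type had an SE of 0.271.

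Atp5e, the small epsilon subunit of the catalytic part, stood at 10.73, 10.78 and 10.75 in FAD DKO, at 10.66, 10.71 and 10.70 in FAD, and at 10.67, 10.60 and 10.55 in wild type. FAD DKO was above both other groups, by 0.15 over wild type (adjusted p = 0.57, limma), and its second probe set gave the same 0.15. Atp5a1, the catalytic part's alpha subunit, stood at 9.28, 9.36 and 9.32 in FAD DKO, at 9.18, 9.21 and 9.20 in FAD, and at 9.21, 9.21 and 9.15 in wild type. FAD DKO was again highest, by 0.12 over FAD, while FAD and wild type were level. Atp5md, a small protein of the membrane part, stood at 9.86, 9.62 and 9.87 in FAD DKO, at 9.78, 9.87 and 9.69 in FAD, and at 9.60, 9.52 and 9.60 in wild type. Here both FAD DKO and FAD lay above wild type, each by 0.21 (adjusted p = 0.57 and 0.584, limma).

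FAD DKO and FAD did not overlap for Ndufb7, Sdhb, Uqcrh, Cox6a1, Atp5a1, Atp5e and Atp5g2 among the higher ones. These 7 come from all 5 complexes, and none differed by more than 0.21. Of 9 members with a second probe set, 5 had a sign that differed between their probe sets in some comparison (Atp5d, Atp5h, Cox5b, Cox7b and Ndufa11). Atp5h gave 0.10 with its brighter and -0.45 with its dimmer probe set in FAD DKO against wild type. For Cox5b the brighter gave 0.16 and the dimmer -0.20 in that comparison, and 0.19 and -0.20 in FAD DKO against FAD. For Ndufa11 the brighter gave 0.09 and the dimmer -0.07 in FAD DKO against wild type, and 0.21 and -0.01 in FAD DKO against FAD. A further 12 probe sets carry a member's symbol together with others and were left out. Their differences lay between -0.11 and 0.22 in FAD against wild type, -0.09 and 0.15 in FAD DKO against FAD, and -0.20 and 0.27 in FAD DKO against wild type. The pseudogenes Atp5c1-ps and Uqcrh-ps1 stayed below the median of all probe sets.

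The start regions of the nuclear genes were read for short sequences known from respiratory chain promoters, since nuclear respiratory factor 1 (NRF1), the ETS factor GABP and YY1 are known to bind there. RefSeq promoters (GRCm38.p6, 250 bases before to 50 after the start) were matched for 72 of the 87 nuclear members. The NRF1 motif GCATGCGC was found on either strand in 12 of them (16.7%), against 3.05% of all 27025 genes in the table. The ETS motif CCGGAAG was found in 19 (26.4%), against 9.93% of all genes, and the YY1 motif AAGATGGC in 10 of the 72, against 3.19%. The NRF1 letters and their reverse complement can overlap in the same site, and a gene was counted once for each motif. At least 1 of the motifs was present in 34 members (47.2%), against 14.9% of all genes. Among the 17492 protein-coding genes the shares were 3.94% for NRF1, 12.9% for ETS, 3.57% for YY1 and 18.7% for at least 1. Members with a motif had a median change of 0.08 in FAD against wild type, as had those without, and in FAD DKO against wild type the medians were 0.08 with and 0.09 without a motif. The 10 members with the YY1 letters had lower medians, of -0.01 with and 0.09 without them in FAD against wild type. In FAD DKO against wild type these were 0.01 and 0.10. NRF1 and ETS went the other way, with 0.08 and 0.06 for NRF1 and 0.09 and 0.05 for ETS in FAD against wild type. In FAD DKO against wild type they had 0.10 and 0.08 (NRF1) and 0.11 and 0.08 (ETS). In FAD DKO against FAD the medians were 0.002 with and 0.001 without the YY1 letters. They were 0.0396 and -0.0071 for NRF1, 0.0058 and -0.0029 for ETS, and 0.0174 and -0.0165 for at least 1 motif. None of these splits was tested.

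The promoters of Sdhb, Uqcrh, Cox6a1 and Atp5g2 are shown because these had, for complexes II to V, the lowest p in FAD DKO against wild type among the members that hold a searched motif. Capitals mark the match, each line runs 5′ to 3′ on the gene's strand, and base 251 is the start.
Sdhb: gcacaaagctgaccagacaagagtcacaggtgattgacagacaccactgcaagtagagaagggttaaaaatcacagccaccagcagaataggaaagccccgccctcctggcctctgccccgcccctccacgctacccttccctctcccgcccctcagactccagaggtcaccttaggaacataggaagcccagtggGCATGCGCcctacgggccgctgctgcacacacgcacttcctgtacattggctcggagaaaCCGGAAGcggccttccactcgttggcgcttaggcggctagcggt
Uqcrh: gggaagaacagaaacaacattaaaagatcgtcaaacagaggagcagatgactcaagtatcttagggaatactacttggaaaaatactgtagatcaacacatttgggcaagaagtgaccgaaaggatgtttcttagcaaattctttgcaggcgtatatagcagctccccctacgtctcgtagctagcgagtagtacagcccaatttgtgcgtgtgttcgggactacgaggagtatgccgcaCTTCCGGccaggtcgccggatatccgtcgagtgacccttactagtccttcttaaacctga
Cox6a1: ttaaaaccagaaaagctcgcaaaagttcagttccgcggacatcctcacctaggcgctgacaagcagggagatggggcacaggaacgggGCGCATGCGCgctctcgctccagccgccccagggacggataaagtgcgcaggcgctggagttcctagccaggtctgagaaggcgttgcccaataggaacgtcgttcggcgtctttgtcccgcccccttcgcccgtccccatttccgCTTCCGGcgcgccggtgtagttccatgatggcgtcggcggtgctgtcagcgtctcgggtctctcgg
Atp5g2: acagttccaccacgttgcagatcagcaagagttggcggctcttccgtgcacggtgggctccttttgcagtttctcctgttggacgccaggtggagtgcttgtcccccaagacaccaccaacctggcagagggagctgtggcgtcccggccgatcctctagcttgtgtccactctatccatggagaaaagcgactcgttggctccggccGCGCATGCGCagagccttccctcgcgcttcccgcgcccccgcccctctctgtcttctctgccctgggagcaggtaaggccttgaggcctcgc
Sdhb lies at chr4:140961021-140961320 (plus strand, GRCm38.p6) with an NRF1 and an ETS match, and Uqcrh at chr4:116075021-116075320 (minus strand) with an ETS match. Cox6a1 at chr5:115348909-115349208 (minus strand) holds both an NRF1 and an ETS match, and Atp5g2 at chr15:102670998-102671297 (minus strand) an NRF1 match. A match says that these letters occur and not that a factor binds there.

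Genes around the pathway were counted from lists of the citric acid cycle, electron carriers and assembly factors, transcription and copying of mitochondrial DNA, mitochondrial RNA processing, and the mitochondrial ribosome. No gene of these lists was called in any comparison (limma). In transcription and copying of mitochondrial DNA, 6 of 21 genes (28.6%) were lower in FAD DKO than in FAD at an unadjusted p under 0.05, beside 4.41% of all genes. Of the genes at or above the median of all probe sets, 6.69% were lower. In the list, 2 of 21 were above 0 in FAD DKO against FAD with a median of -0.09, 17 of 21 in FAD against wild type with a median of 0.07, and 7 of 21 in FAD DKO against wild type with a median of -0.05. The first and second of these share the FAD arrays, which enter them with opposite signs.

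Polg2, the accessory subunit of the mitochondrial DNA polymerase, stood at 7.48, 7.10 and 7.18 in FAD DKO, at 7.74, 7.62 and 7.64 in FAD, and at 7.37, 7.49 and 7.49 in wild type. Every FAD DKO array was below every FAD array, by -0.41 on average (adjusted p = 0.319, limma), and wild type overlapped with FAD DKO. Tfb2m, which opens the promoter for the mitochondrial RNA polymerase, stood at 8.32, 8.30 and 8.51 in FAD DKO, at 8.77, 8.80 and 8.59 in FAD, and at 8.50, 8.40 and 8.61 in wild type. It differed by -0.35 in FAD DKO against FAD (adjusted p = 0.379, limma), with FAD DKO and wild type overlapping.

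The 71 genes of the mitochondrial ribosome, which translates the mitochondrially encoded subunits, had 55 above 0 in FAD against wild type (median 0.07), 23 in FAD DKO against FAD (median -0.05) and 39 in FAD DKO against wild type (median 0.00). The 17 measured genes of mitochondrial RNA processing had 15, 4 and 7 above 0 in the same comparisons, with medians of 0.08, -0.07 and -0.02. The 45 measured carriers and assembly factors had 27, 19 and 26 above 0, with medians of 0.04, -0.01 and 0.03. Among them Cox17, the copper chaperone of complex IV, stood at 8.23, 8.06 and 8.41 in FAD DKO, at 8.00, 8.16 and 8.09 in FAD, and at 7.96, 7.94 and 7.88 in wild type (FAD DKO against wild type 0.31, adjusted p = 0.388, limma). The 19 measured citric acid cycle genes had 12, 4 and 3 above 0, with medians of 0.02, -0.08 and -0.05. So in FAD DKO against wild type the 87 nuclear members, assembly factors included, had 73.6% of values above 0 and the citric acid cycle genes 15.8%, a difference that was not tested.

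**Figure D5:**
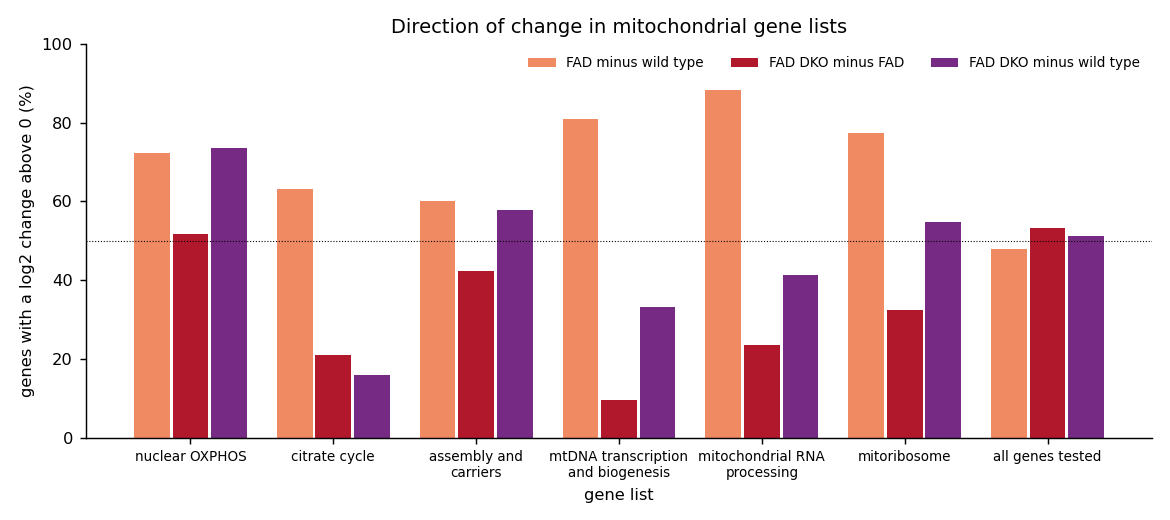
Percent of genes above 0 in each comparison for the nuclear members and the surrounding lists, with a bar for FAD against wild type (left), for FAD DKO against FAD (middle) and for FAD DKO against wild type (right). The nuclear members are at 72.4%, 51.7% and 73.6%, and transcription and copying of mitochondrial DNA at 81%, 9.52% and 33.3%.

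Markers of monocytes and neutrophils, cells that a sort of brain myeloid cells can hold, also differed in sign between the comparisons. All 8 were above 0 in FAD against wild type (median 0.36) and 7 of 8 were below 0 in FAD DKO against FAD (median -0.27), while the median in FAD DKO against wild type was 0.04, with no marker called (limma). The FAD arrays enter the first and second of these comparisons with opposite signs. FAD and wild type arrays did not overlap for 1 of the 8 (12.5%, beside 6.37% of all genes), and FAD DKO and FAD overlapped for each marker. S100a8, the brightest, stood at 8.63, 11.39 and 10.58 in FAD DKO, 10.39, 10.46 and 10.42 in FAD, and 9.41, 10.46 and 10.67 in wild type. Its direction thus leans on array 1 of FAD DKO and of wild type. The part of these markers in the values of the pathway was not tested.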

How the data were processed

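Each of the 9 arrays measured amplified RNA of sorted microglia. The authors deposited log2 signals, made with RMA per the submitters' processing notes, a method that corrects background, normalizes arrays by quantiles and summarises the probes of each probe set. Neither its version nor the annotation build is given in the sources used here. No detection calls or scanner signals were used. Of 41345 probe sets, 23521 carried 1 gene symbol, 1814 several, and 16010 were not listed by the annotation table and are unnamed here. The brightest probe set stood for each of the 22180 genes. Genes were assigned to complexes by hand. The members and lists were chosen with earlier results of these data known. Genes named one by one were the mitochondrially encoded ones, any called member, and per complex and comparison up to 3 nuclear members of smallest p, with isoform genes and up to 3 genes of each list, of which the text uses a part.

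Groups were compared in a joint model of the 9 arrays, fitted by lmFit and eBayes (limma 3.58.1, R 4.3.3) with 6 residual degrees of freedom. All tests were two-sided, the Benjamini-Hochberg adjustment ran over all 22180 genes, and a gene is called at an adjusted p under 0.05. The script was tested on simulated data. The alternatives were a filter at the median of all probe sets (5.35), quantile normalization, a trended and robust variance, only the compared groups, array weights, averaging the probe sets of a gene, the replicate number as a block, and each array left out. Promoters and gene order are RefSeq's (GRCm38.p6).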

Additional observations from a re-analysis of the deposited data

How the results depend on the processing

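ND3 stayed called in FAD against wild type under every alternative, and in FAD DKO against wild type under every one but the removal of wild type array 2, FAD DKO array 1 or FAD DKO array 3. The medians of the nuclear and mitochondrial members moved by less than the SD between arrays, yet some changed sign. With an array left out, the mitochondrial median ranged from -0.0068 (without FAD array 2) to 0.0507 in FAD against wild type. It ranged from -0.1252 (without FAD DKO array 3) to 0.0057 (without FAD DKO array 2) in FAD DKO against FAD, and from -0.1105 to 0.028 without the same arrays in FAD DKO against wild type. The nuclear median ranged from 0.0465 (without wild type array 3) to 0.091 in FAD against wild type, from -0.0109 (without FAD array 3) to 0.0347 in FAD DKO against FAD, and from 0.0597 to 0.0937 in FAD DKO against wild type. Medians by complex moved likewise, for example between -0.0129 and 0.0707 for complex II in FAD against wild type. The small ND3 difference in FAD DKO against FAD turned to 0.0064 after quantile normalization and ranged from -0.0967 to 0.0412 with an array left out. With an array left out, 0 to 2 members were called in FAD DKO against wild type (the second being Cox7c, without FAD array 1).

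Counts over all genes depended more on the setting. In FAD against wild type 9 genes were called, against 33 with the filter on low signal, 43 with a trended and robust variance, 5 with only the compared groups and 22 with array weights. In FAD DKO against FAD it was 5, against 11 with the filter, 3 after quantile normalization, 12 with a trended and robust variance, 0 with only the compared groups (limma; in the fit of all arrays 3.69% of genes were higher and 4.41% lower at an unadjusted p under 0.05) and 0 to 5 with an array left out. In FAD DKO against wild type it was 31, against 117, 124 and 82 with the filter, the trended and robust variance and array weights, 13 with only the compared groups, and 2 to 28 with an array left out. The cause was not tested. With the replicate number as a block, 2 genes were called in FAD DKO against FAD and 11 in FAD DKO against wild type. Same-numbered arrays of different groups correlated between -0.11 and 0.12 after removal of group means, and differently numbered ones between -0.19 and 0.13. These values show no pairing by number, but with 3 arrays per group they cannot settle whether some genes share one. Signal over background could not be read, and values near the median of all probe sets, such as those of Cox7c and Cox4i2, limit what a change there can show.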
